A study of Caenorhabditis elegans with 16 samples.

Results

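The smaller of the 2 piRNA gene clusters of Caenorhabditis elegans lies on chromosome IV, left of the chromosome's middle. It was described here as the 500 bp windows of IV after base 4500000 and up to 7000000 that held at least 20 counts in each of the 4 input libraries, on the build of the deposited counts. Of 5000 windows in this stretch 4733 met that condition, out of 191140 of 198087 windows in all. The stretch was set beside IV from there to base 13500000, between the 2 clusters, where 12594 of 13000 windows met it. The rule for the windows used position and input depth and no ChIP value, though it was set with earlier results of these data known.

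piRNAs are short RNAs of the germline that bind the Piwi protein PRG-1 and guide the silencing of transposons and other foreign sequences. In worms nearly every piRNA is made from a small gene of its own, and these genes lie between and inside protein-coding genes. In the gene table used here (WBcel235) 14714 of 15363 piRNA genes, 95.8%, belonged to IV. Read by gene order alone they fell into 2 dense stretches along IV. The first held 2787 piRNA and 413 protein-coding genes among 3464, and the second held 11521 piRNA and 455 protein-coding genes among 12258. That table is of another build than the windows, so no window could be tied to a gene and the name of the region was not checked against its genes.

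Methylation of lysine 9 of histone H3 marks silent chromatin. In worm embryos MET-2, related to mammalian SETDB1, lays down the mono- and dimethyl forms, and SET-25 is the enzyme known for the trimethyl form. H3K9me2 and H3K9me3 were immunoprecipitated from early embryos, before the bean stage, of met-2(n4256) III and set-25(n5021) III worms kept at 20 °C. Each mark in each strain had a ChIP and an input. The labels hold no strain with both enzymes and name 2 biological replicates for each of the 8 groups, but the table has 1 column per group and does not say whether that column is 1 replicate or a sum. No spread between replicates was therefore available and no test between strains or stretches was run. Intervals below cover counting error only.

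The ChIP columns held 19732750 to 58645635 counts and the input columns 34007808 to 114221896. In the cluster region the median window held 132 counts in the H3K9me2 ChIP of met-2, 30 in the H3K9me2 ChIP of set-25, 160 in the H3K9me3 ChIP of met-2 and 46 in the H3K9me3 ChIP labelled set-25. The inputs of the same labels had medians of 194, 243, 396 and 185 counts. The count table names no genes, so the mutations, both on III, were looked for as the longest run there that was missing from the H3K9me2 input of 1 strain and present in that of the other. From 8376501 to 8377500 the 4 columns of met-2 held 0 to 6 counts, and from 13287501 to 13289000 the H3K9me2 columns of set-25 held 6 and 4. The H3K9me3 columns labelled set-25 went against their label. Their ChIP held 1431 counts in the second run, where its flanks predicted 844.5, and 15 of a predicted 97 in the first. Their input held 2 of 628.5 in the second run and 2 of 570 in the first. In the second run this ChIP and its input thus disagreed with each other, and whether they came from the same strain is not known. These H3K9me3 columns are called the library labelled set-25 below. Every enrichment value of that library is a ratio of these 2 columns, and every H3K9me3 comparison between strains rests on it.

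The region carried little of either mark over most of its length. Each ChIP and the input of the same label were put in CPM (counts scaled to the column total), and 0.1 was added. The log2 of their ratio was taken as enrichment. Windows above 1 were called enriched. For H3K9me2 in met-2, 65 of 4733 windows (1.37%) were enriched, against 1.18% between the clusters and 1.34% of all windows. A single stretch of 29 kb, described below, held 36 of these 65, so the share does not describe the region as a whole. For H3K9me2 in set-25, 68 windows (1.44%) were enriched, against 1.67% between the clusters. Both stretches lay far under the 10.3% of all windows. For H3K9me3 in met-2 it was 124 windows (2.62%), against 4.98% between the clusters and 4.10% of all windows. In the H3K9me3 library labelled set-25 it was 230 windows (4.86%), against 4.08% and 6.81%.

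The typical window of the region differed little from that of the stretch between the clusters. The median log2 enrichment of H3K9me2 in met-2 was -0.15 (quartiles -0.44 and 0.15) in the region and -0.01 (-0.28 and 0.25) between the clusters. For H3K9me2 in set-25 the medians were -1.73 in the region and -1.69 between the clusters, and for H3K9me3 in met-2 -0.43 and -0.31. In the library labelled set-25 they were -0.63 and -0.59. The region's medians were lower by 0.14, 0.042, 0.12 and 0.040, and the quartile ranges overlapped in each library. Rank-based intervals of the region's median, taken from the fixed median between the clusters, gave -0.15 to -0.13, -0.067 to -0.023, -0.14 to -0.10 and -0.11 to 0.0048. They treat windows as independent and leave out the error of the comparison stretch. They are therefore no test of a difference between the stretches. With the input of the other mark in place of its own, both H3K9me2 differences changed sign, to 0.067 in met-2 and 0.11 in set-25.

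**Figure D1:**
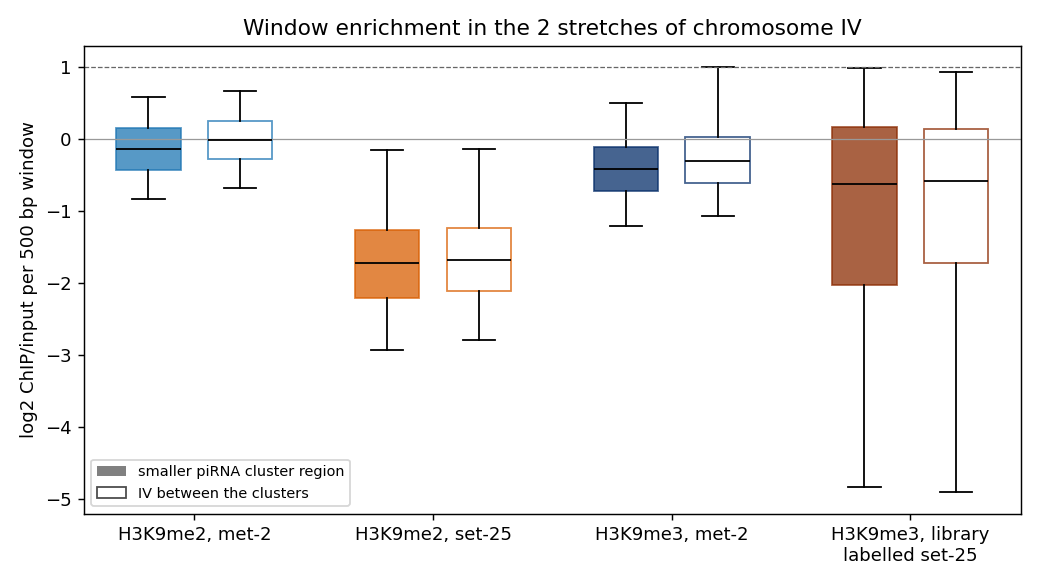
Log2 ChIP over input per 500 bp window for each library (x axis), in the smaller piRNA cluster region (filled, 4733 windows) and on IV between the clusters (open, 12594 windows). Boxes span the quartiles with the median as a line, whiskers reach the 5th and 95th percentiles, and the dashed line is the threshold of 1. The paired boxes overlap in every library, and the upper whisker of H3K9me3 in met-2 ends at 0.50 in the region and at 0.99 between the clusters.

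Segments of 100 kb differed most among themselves for H3K9me3 under the set-25 label. Across 25 segments the median of H3K9me2 in met-2 ran from -0.31 (5700001 to 5800000) to 0.14 in the first 100 kb. In set-25 it ran from -1.95 (5800001 to 5900000) to -1.36, again in the first segment. H3K9me3 in met-2 ran from -0.56 (5100001 to 5200000) to -0.22 (6300001 to 6400000), and the library labelled set-25 from -1.51 (4900001 to 5000000) to 0.058 (4600001 to 4700000). Between the clusters the 65 segments covered -0.24 to 0.20, -1.97 to -0.97, -0.53 to 0.24 and -1.52 to 0.0075 in the same libraries. The 2 sets of segments overlapped in each library, and the highest segment lay between the clusters for H3K9me2 in both strains and for H3K9me3 in met-2.

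The first 300 kb had higher medians than the rest of the region in all 4 libraries. Up to base 4800000 the median was 0.10 for H3K9me2 in met-2, against -0.19 over the rest of the region, and -1.44 against -1.78 for H3K9me2 in set-25. The shift was largest in the library labelled set-25, at -0.035 against -0.77, and smallest for H3K9me3 in met-2, at -0.37 against -0.44. Set-25 H3K9me2 was enriched in 20 of 583 windows (3.43%) there and in 48 of 4150 (1.16%) of the rest, and met-2 H3K9me3 in 27 (4.63%) and 97 (2.34%). In the 300 kb before the region 33 of 565 windows (5.84%) were enriched for H3K9me2 in set-25 and 36 (6.37%) for H3K9me3 in met-2. The medians there were 0.066, -1.21, -0.47 and 0.057 in the 4 libraries, so that of H3K9me3 in met-2 was below the rest of the region. The 300 kb after it had 10 of 597 (1.68%) and 8 (1.34%).

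At the chosen limits the windows just inside and just outside differed most for H3K9me2 in set-25 at the left. In the first 10 windows inside, H3K9me2 stood at -0.050 in met-2 and -1.28 in set-25 over summed counts, and in the last 10 before them at -0.19 and -2.03. H3K9me3 in met-2 was -0.37 inside and -0.49 outside, while the library labelled set-25 had 0.095 inside and 0.27 outside. At the other limit the last 10 windows inside stood at -0.12, -1.96, -0.46 and -0.14 in the same order of libraries, and the first 10 outside at 0.049, -1.87, -0.59 and -0.058. Of these 40 windows 2 were enriched in any library, both in the library labelled set-25 at the left limit.

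**Figure D2:**
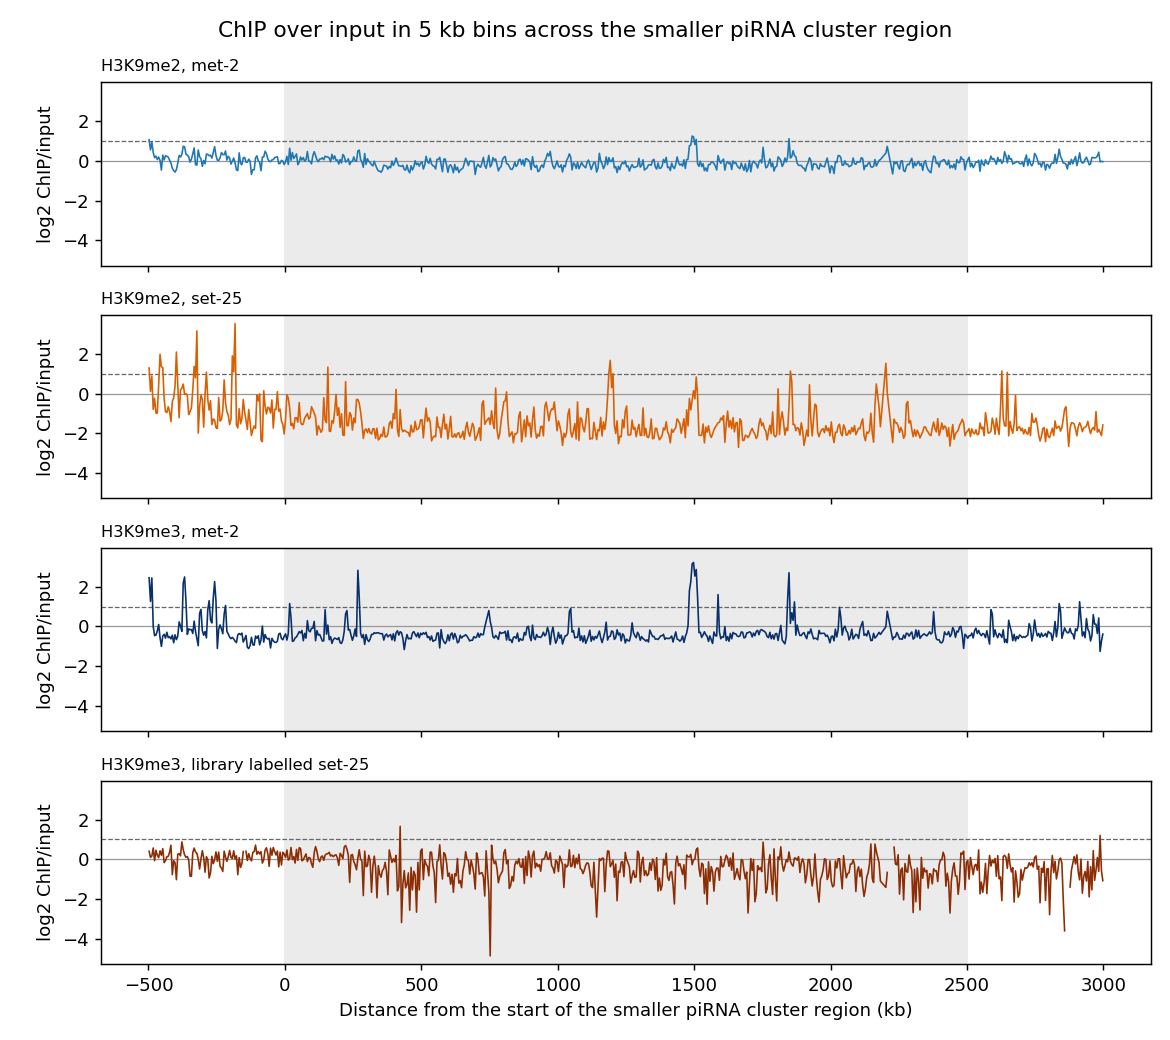
Log2 ChIP over input of counts summed in 5 kb bins (y axis) by distance from the start of the region in kb (x axis), with the region shaded, for each of the 4 libraries. The dashed line is the threshold of 1, and bins without ChIP counts are gaps. Of 492 bins in the region, 4 (met-2) and 6 (set-25) exceeded 1 for H3K9me2. For H3K9me3 14 bins did so with met-2 and 1 with the library labelled set-25, and the tallest peak of H3K9me3 in met-2 reached 3.22.

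What H3K9me3 the region had in met-2 embryos was gathered in few places. The 124 enriched windows formed 28 runs of adjacent windows, or 11.2 per Mb, against 22.0 per Mb between the clusters. Runs separated by at most 3 windows were joined into islands, a definition made after the values were seen. This gave 19 islands in the region (7.60 per Mb, 4 of at least 5 kb) and 101 between the clusters (15.5 per Mb, 23 of at least 5 kb). A single island held 54 of the 124 windows, 43.5%. Outside it 1.5% of the region's windows were enriched, against 4.68% between the clusters outside their own longest island. Among the windows that met the input floor, the longest stretch without an enriched one was 434.5 kb (5547501 to 5982000), against 243.5 kb between the clusters. It held 2 windows above 1 that missed the floor, from 5773001 (1.40) and 5774501 (1.93). For H3K9me2 in met-2 it was 686.5 kb (4773501 to 5460000), against 377 kb. In the 600 kb up to base 5400000, which held 23.4% of the region's windows, 2 windows were enriched for H3K9me3 in met-2. For H3K9me2 0 were enriched in met-2 and 5 in set-25. The library labelled set-25 had 51 there, 22.2% of its 230 and near the stretch's share of windows.

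The island spanned 29 kb, from 5982001 to 6011000. Over its 58 windows the H3K9me3 ChIP of met-2 held 237304 counts and its input 67788, a log2 enrichment of 2.77 (2.76 to 2.78) or 6.82-fold. The library labelled set-25 held 12292 ChIP and 28280 input counts, at 0.12 (0.091 to 0.15), which is 6.27-fold lower than in met-2. H3K9me2 stood at 1.03 (0.99 to 1.06) in met-2, from 15010 ChIP and 9439 input counts, and at -0.01 (-0.054 to 0.032) in set-25, from 6286 and 14411. All 4 libraries thus stood above their medians over the region there. Met-2 H3K9me3, whose values chose the island, did so by the most, which the choice favours.

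At its edges H3K9me3 of met-2 changed between adjacent windows, from 0.55 to 2.26 at the left and from 2.30 to 0.20 at the right. Islands begin and end with windows above 1, so the windows next to them had to lie at or under 1. In the 5 kb before the island H3K9me3 of met-2 was 0.22 (highest window 0.55) and in the 5 kb after it -0.069 (highest window 0.20). Inside, 54 of the 58 windows exceeded 1, which the definition favours, and the highest, from 5996001, reached 3.57. The 4 windows under 1 formed 2 notches, from 5986501 to 5987500 and from 6004001 to 6005000, where the lowest window stood at 0.71. The notches divided the island into runs of 4.5, 16.5 and 6 kb, with H3K9me3 enrichment in met-2 of 1.94, 2.99 and 2.80. The 16.5 kb run, from 5987501 to 6004000, was exceeded by 1 run on IV in that library, of 19.5 kb, and by 9 of the 1820 runs in the genome.

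H3K9me2 in met-2 was raised over much of the island too, at a lower height and with a less clear left edge. It exceeded 1 in 36 of the 58 windows, and its 2 longest runs in the region lay inside, from 5988501 to 5994000 (1.24, 1.16 to 1.32) and from 5994501 to 5999500 (1.25, 1.17 to 1.33). They were separated by a single window at 0.96. In the first notch its lowest window was 0.21, and in the second -0.76. H3K9me2 of met-2 reached 0.62 in the 5 kb before the island, whose first window had 0.51, and 0.86 in the 5 kb after. In the window from 6005001 it was 0.020, with H3K9me3 at 2.26. These H3K9me2 values rested on the input. The H3K9me3 inputs held more counts in the island than elsewhere, 2.95 times the region's median window for met-2 and 2.64 times for the one labelled set-25, while the H3K9me2 inputs held 0.84 and 1.02 times theirs. Over the H3K9me3 input of met-2, H3K9me2 of met-2 was -0.071 in the island, and 0.82 over the H3K9me2 input of set-25. H3K9me3 of met-2 was 3.87 over the H3K9me2 input of met-2 and 2.82 over the H3K9me3 input labelled set-25. The part of the inputs in the H3K9me2 values was not tested.

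H3K9me2 in set-25 had another shape across the same island. The median window stood at -0.16, and both notches were deep, with lowest windows of -2.61 and -2.44. Above 1 were 4 of the 58 windows, and those 4 were adjacent, from 6005501 to 6007500, 0.5 kb right of the second notch. There it stood at 1.47 (1.35 to 1.60), with met-2 H3K9me2 at 1.15 (0.995 to 1.30), met-2 H3K9me3 at 2.75 and the library labelled set-25 at 0.36. A further run of set-25 H3K9me2, from 6011501 to 6013000, lay 0.5 kb beyond the island's right edge, at 1.79 (1.56 to 2.02). In it met-2 had H3K9me2 at 0.34 (0.033 to 0.65) and H3K9me3 at -0.0046 (-0.12 to 0.11), so met-2 was lower in H3K9me2, by 1.45 on the log2 scale.

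**Figure D3:**
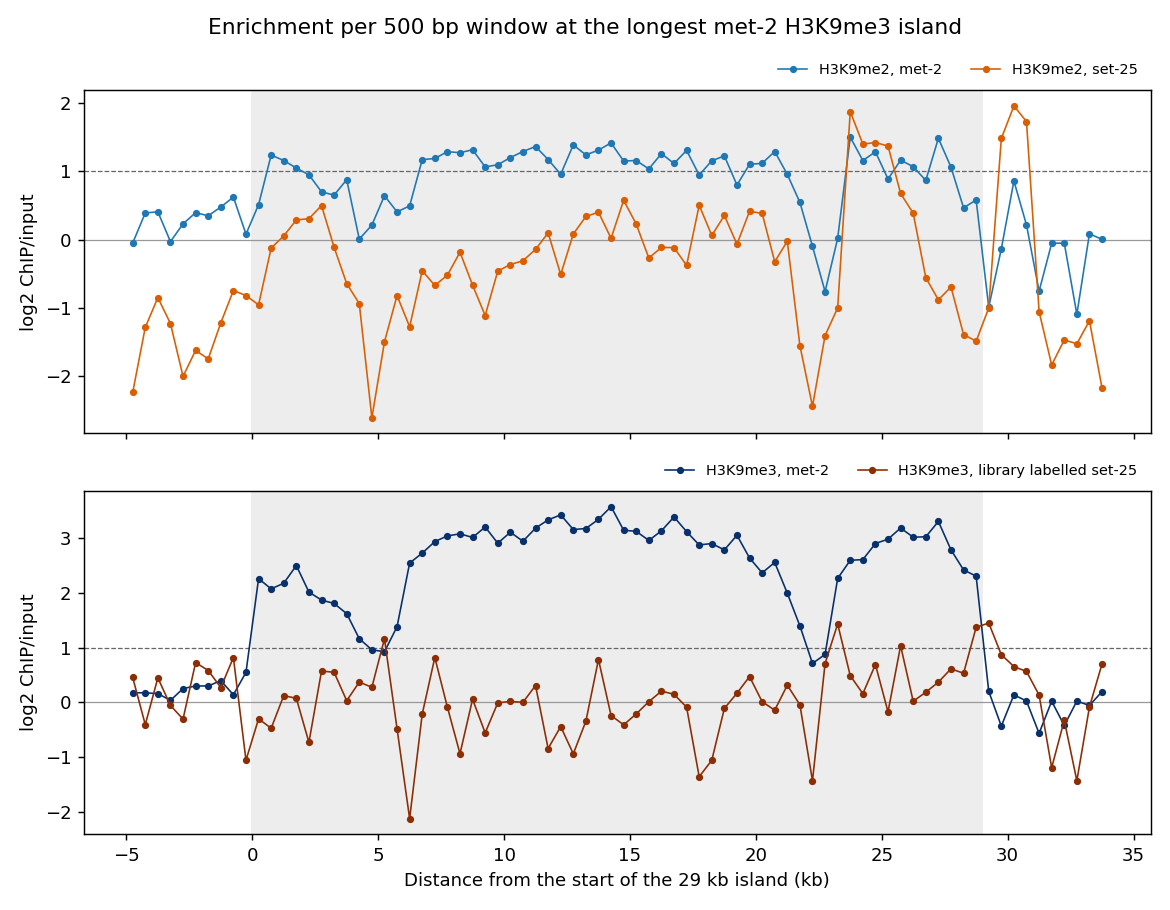
Log2 ChIP over input per 500 bp window (y axis) by distance in kb from the start of the 29 kb island (shaded), for H3K9me2 in met-2 and set-25 (top) and H3K9me3 in met-2 and the library labelled set-25 (bottom). H3K9me3 of met-2 rises above 1 (dashed line) inside and drops at 2 notches, and set-25 H3K9me2 exceeds 1 in 4 adjacent windows inside and 3 just beyond the right edge.

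The other islands of met-2 H3K9me3 were shorter. One of 6 kb, from 6342501 to 6348500, had H3K9me3 at 2.56 (2.51 to 2.60) in met-2, against 0.34 for the library labelled set-25. Its H3K9me2 stood at 0.84 in met-2 and -1.17 in set-25. One of 5 kb, from 4767001 to 4772000, reached 2.97 (2.94 to 2.999) for H3K9me3 in met-2, against 0.11, with H3K9me2 at 0.66 in met-2 and -0.46 in set-25. Another, from 5542501 to 5547500, was joined from 3 runs and was weaker, at 1.11 for H3K9me3 in met-2 and 0.53 for H3K9me2. The remaining 15 measured 0.5 to 3.5 kb, and 7 of the 19 were single windows, among them that from 5239001 at 2.22 in met-2 where the library labelled set-25 had 2.39. That window had thin inputs, of 25 H3K9me3 counts for met-2 and 20 for the one labelled set-25.

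Over all 19 islands the median of met-2 H3K9me2 was 0.47, with values above 0 in 15 and above 1 in 1. Over the H3K9me3 input of met-2 its median was -0.021, with 8 above 0, and over the H3K9me2 input of set-25 it was 0.38, with 14 above 0. H3K9me2 of set-25 had a median of -1.17 over the islands, above 0 in 3, and stood above its median over the region in 17. The library labelled set-25 had a median of 0.12. H3K9me3 of met-2, whose values chose the islands, was above 1 in 15 of 19 with the input labelled set-25 and in 13 of 19 with the H3K9me2 input of met-2, and above 0 in 19 and 18. The H3K9me3 inputs were raised at these places, with 15 islands above the region's median in each and median levels of 1.95 times (met-2) and 2.05 times (labelled set-25).

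At the level of windows, enriched H3K9me2 of met-2 mostly coincided with enriched H3K9me3 of met-2. Of its 65 windows 51 (78.5%) were enriched for H3K9me3, which is 41.1% of the 124. Between the clusters 106 of 149 coincided (71.1%), or 16.9% of the 627 H3K9me3 windows there. Over all windows the shares were 54.8% and 17.9%. In the region 36 of the 51 shared windows lay in the 29 kb island. No H3K9me2 window of met-2 passed 2 on the log2 scale, and in 17 of the 65 the counting interval lay wholly above 1. The share that coincided also depended on the input, since over the inputs of the other mark 0.324% of the windows enriched for H3K9me2 in met-2 were enriched for H3K9me3.

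H3K9me2 in set-25 embryos was found in short patches, some of them close together. The 68 windows formed 39 runs, 20 of them single windows, and the longest measured 2.5 kb. This run, from 6350001 to 6352500, had H3K9me2 at 0.26 (-0.0075 to 0.52) in met-2 and at 3.04 (2.87 to 3.21) in set-25, a 6.86-fold difference. H3K9me3 there was 0.037 in met-2 and 0.44 in the library labelled set-25. The next ones outside the 29 kb island were from 4657501 to 4659000, with H3K9me2 at 0.39 in met-2 and 2.59 in set-25, and from 6664501 to 6666000, at 0.24 and 2.04. In the last of these the library labelled set-25 also exceeded 1 for H3K9me3, at 1.11 (0.94 to 1.27), with met-2 at -0.32. Peaks of 1 window were higher. The highest window in the region, from 5691001, had 2561 ChIP and 147 input counts in set-25, a log2 enrichment of 5.27 (5.07 to 5.56), while H3K9me2 of met-2 was 0.77 and H3K9me3 of met-2 -0.89. It was picked after its value was seen. That window belonged to the densest group of such patches, 7 runs with 12 of the 68 windows (17.6%) in the 21 kb from 5684001 to 5705000, also picked after the values were seen. Over this stretch H3K9me2 was 0.061 (0.0090 to 0.11) in met-2 and 1.09 (1.04 to 1.13) in set-25, H3K9me3 of met-2 was -0.39, and 0 windows were enriched in met-2 for either mark. In 55 of the 68 windows the counting interval lay above 1.

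Of the 68 windows 5 (7.35%) were also enriched for H3K9me3 in met-2, which is 4.03% of the 124. Between the clusters these shares were 12.9% and 4.31%, and over all windows 5.13% and 12.8%. In the region 4 of the 5 shared windows were adjacent, from 6005501 to 6007500 in the 29 kb island. Of the 39 runs 2 overlapped an island, 5 more lay within 2 kb of one, and the median distance was 32.5 kb. The dense group from 5684001 lay 136.5 kb from the nearest. The 2.5 kb run above began 1.5 kb to the right of the 6 kb island, and a run from 4723001 to 4724500 ended right before the island from 4724501 to 4727500. Within 10 kb of an island lay 31 of the 68 windows (45.6%), against 14.2% of the region's windows. Between the clusters the same count was 57 of 210 (27.1%), where 29.5% of windows lay so close. This comparison was made after the values were seen. The first 300 kb held 8 of the 13 runs that lay within 10 kb. Enriched windows of set-25 H3K9me2 and of met-2 H3K9me3 were both more frequent there than in the rest of the region.

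The H3K9me3 library labelled set-25 gave a scattered pattern instead. Its 230 windows formed 203 runs, 179 of them single windows, and none was longer than 1.5 kb. It held 0 ChIP counts in 730 windows (15.4%), against 10.2% between the clusters and 8.64% of all windows, so many of its lowest values are set by the added 0.1 CPM. Its longest runs were from 6317001 to 6318500, with H3K9me3 at -0.62 in met-2 and 1.65 (1.46 to 1.84) in the library labelled set-25, from 6645501 to 6647000 (-1.09 and 1.55) and from 4792001 to 4793500 (-0.86 and 1.24). Of the 230 windows 8 (3.48%) were also enriched for H3K9me3 in met-2, which is 6.45% of the 124, close to the 3.33% and 5.54% over all windows. In 104 of the 230 the counting interval lay above 1. When windows of 5 kb were used, 0.403% were enriched.

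**Figure D4:**
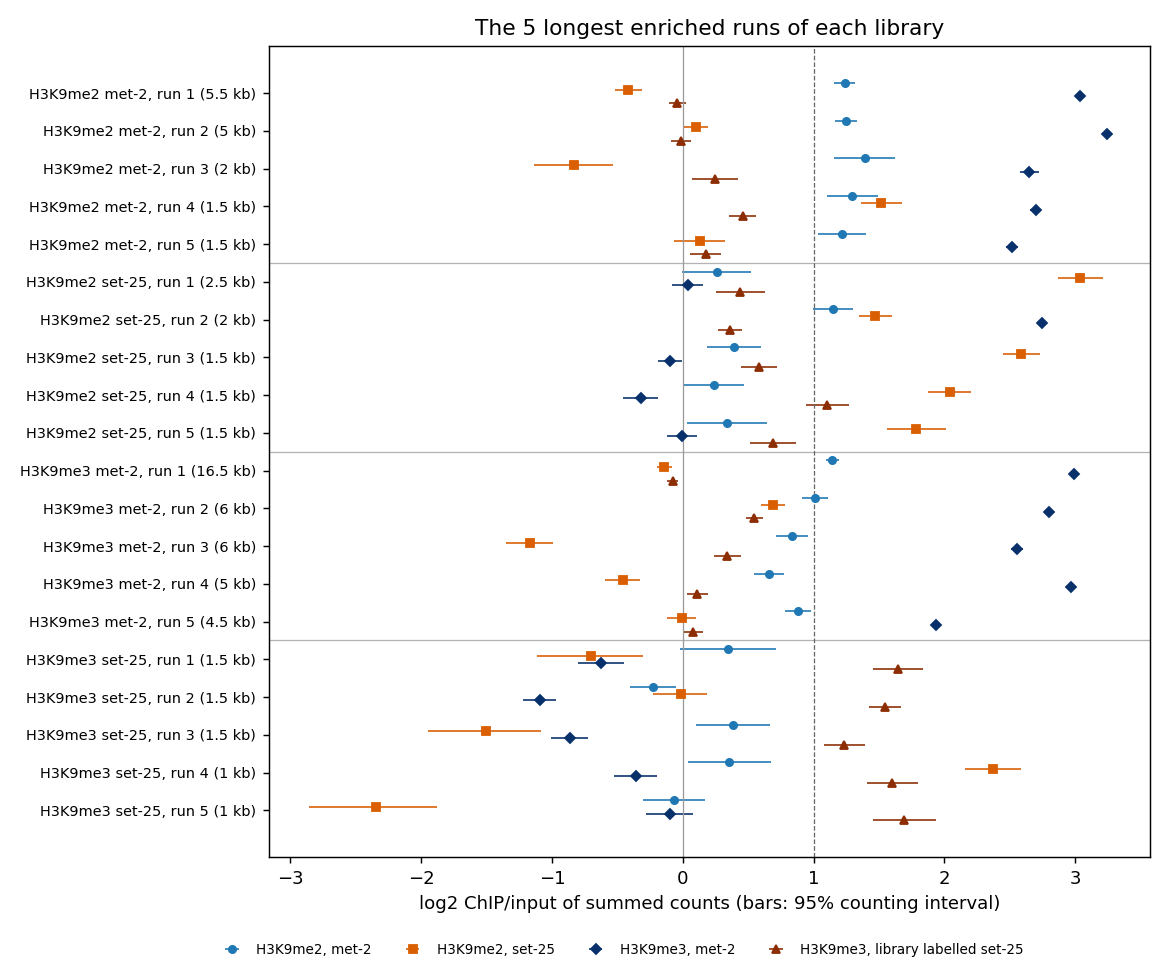
Log2 ChIP over input of summed counts (x axis) in the 5 longest enriched runs of each library (y axis, grouped by the library that chose them, equal lengths ordered by summed log2 enrichment), with 95% counting intervals as bars and the threshold of 1 dashed. The runs chosen in met-2 H3K9me2 come from the 29 kb and the 6 kb island only, and all lie above 2 for met-2 H3K9me3. Among all 33 enriched runs of met-2 H3K9me2 in the region, 19 exceed 1 for met-2 H3K9me3. Of the 5 chosen in set-25 H3K9me2, 4 lie below 0.1 for met-2 H3K9me3.

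Between the strains, met-2 exceeded set-25 in H3K9me2 by 2-fold or more in 3786 windows of the region (80.0%), against 83.2% between the clusters and 60.2% of all windows. It was lower in met-2 to that degree in 68 (1.44%), against 1.49% and 9.81%. The median window stood at -0.15 in met-2 and -1.73 in set-25. These shares depended on the scaling, since the median over all windows was -0.0051 in met-2 and -1.33 in set-25. Once the libraries were centred on these medians, 13.7% of windows were higher and 5.73% lower in met-2, and the region's median difference was 0.28, against 0.35 between the clusters. Among windows with a 2-fold difference before centring that were also enriched in set-25, the longest runs with lower H3K9me2 in met-2 were the one from 6011501 described above, one from 6350001 to 6351000 within the 2.5 kb run (0.65 in met-2 and 3.64 in set-25) and one from 6423501 to 6424500, at -0.28 in met-2 and 2.62 in set-25. The longest with higher H3K9me2, also enriched in met-2, was from 5988501 to 5994000 (1.24 in met-2 and -0.42 in set-25). Next came those from 6344501 to 6346500 (1.39 and -0.83) and from 5997501 to 5999500 (1.19 and -0.21). Once centred, met-2 exceeded set-25 in these runs by 0.33, 0.90 and 0.080.

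For H3K9me3, met-2 exceeded the library labelled set-25 by 2-fold or more in 1744 windows (36.8%), against 36.8% between the clusters and 29.7% of all windows. It was lower in 696 (14.7%), against 11.6% and 19.6%. In windows of 5 kb these shares were 13.7% and 4.84%. The library labelled set-25 had 0 ChIP counts in 15.4% of the region's windows, 10.2% between the clusters and 8.64% of all windows. There its value is set by the added 0.1 CPM. The part of such windows in the 2-fold differences was not tested. Where such a difference met a log2 enrichment above 1 in whichever library was higher, the longest run with more H3K9me3 in met-2 was the 16.5 kb run of the island, at 2.99 in met-2 and -0.076 in the library labelled set-25 (8.38-fold), followed by those from 6342501 to 6348000 (2.59 and 0.28) and from 6005501 to 6010500 (2.84 and 0.44). The longest in the other direction were the 3 runs of the library labelled set-25 given above.

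The inputs differed between the marks more than between the strain labels. Over the 4733 windows the counts of the H3K9me2 inputs of met-2 and set-25 had a Pearson r of 0.78, and those of the H3K9me3 inputs 0.96, while the 2 inputs of met-2 had -0.29 and the 2 labelled set-25 0.10. Between the clusters these were 0.77, 0.96, -0.25 and 0.16. The 0.96 of the H3K9me3 pair cannot be read as a comparison of strains. Its member under the set-25 label was nearly empty in the run missing from met-2 too, with 2 of a predicted 570 counts. For the same reason the 0.10 may not compare the marks within 1 strain. The H3K9me2 pair and the 2 inputs of met-2 do not rest on that column. The windows share their libraries, and neighbours are not independent, so these values are descriptions. In the region 267 windows missed the input floor. Of these 200 were low in an input of both marks and 58 had no count in any column, 40 were low in an H3K9me2 input only and 27 in an H3K9me3 input only. The longest such stretch measured 22 kb, from 6682501 to 6704500.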

How the data were processed

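The authors deposited whole-number counts per 500 bp window, not normalized, in 8 columns, 1 per group. Per the labels' protocols, embryos were fixed with 2% formalin and chromatin was sonicated. The aligner, counting tool, duplicate removal, repeat handling and build of the windows are named in no source used here. Repeats in which reads map to several places can therefore carry counts of other copies. The last line was incomplete and was left out, so X beyond 16493500 was not analysed here.

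Each column was scaled to its total (19732750 to 114221896 counts) before the ratio was taken, with 0.1 CPM added to both sides, and windows with under 20 counts in any input were dropped. Over runs, islands and flanks, ChIP and input counts were summed with nothing added, and the 95% bounds are exact Clopper-Pearson limits. PCR copies are not independent molecules, so they cover counting error only. With 1 column per group no test was run. A strain difference was called at a log2 difference of at least 1, met-2 over set-25. Runs of adjacent windows were named by length, the 5 longest per library and, per strain difference and direction, the 3 longest whose windows were also enriched in the higher library. Equal lengths were ordered by the summed log2 value, so runs of the same length can be unnamed. The members and lists were chosen with earlier results of these data known, and the islands, the stretches of 200 to 600 kb, the 10 kb distance and the single windows named were chosen after values were seen. The dense piRNA stretches are runs in which at least 50% of 101 neighbouring genes were piRNA genes. Alternatives changed the threshold, pseudocount, input floor, input, window size, centring, limits and comparison stretch. The scripts (Python 3.11.15, numpy 2.4.6, pandas 2.3.3, scipy 1.17.1) were tested on simulated data.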

Additional observations from a re-analysis of the deposited data

Results flagged for a closer look

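Among the windows left out for low input counts, 8 had H3K9me3 of met-2 above the enrichment threshold over H3K9me3 inputs that did reach 20 counts, a signal in data that no comparison above used. They began at 4516001 (log2 enrichment 2.31), 4516501 (2.21), 4560001 (1.22), 5455001 (1.13), 5773001 (1.40), 5774501 (1.93), 6349001 (1.25) and 6823501 (1.05). The library labelled set-25 stood higher than met-2 at 4 of them, with 1.64 at 4560001, 2.5 at 5455001, 2.18 at 5774501 and 2.33 at 6823501, and had 10 such left-out windows above 1 itself. The first 2 held 9426 H3K9me3 ChIP and 3797 input counts in met-2, against 461 and 1779 in the library labelled set-25. In the H3K9me2 libraries the same pair held 15 ChIP and 5 input counts in met-2 and 2 and 32 in set-25. This pair lies within the island from 4515001 to 4518500, and the window from 6349001 lies between the 6 kb island and the 2.5 kb run of set-25 H3K9me2.

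In the run from 6005501 to 6007500 the differences of met-2 from the columns labelled set-25 pointed opposite ways for the 2 marks. Met-2 minus the column labelled set-25 was -0.33 for H3K9me2 and 2.39 for H3K9me3, with 1 library per group. The H3K9me3 library labelled set-25 went against its label, so the 2.39 cannot be read as a strain difference. The difference between the marks was not tested.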

How the results depend on the processing

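No paired analysis was possible because the table has 1 column per group and its columns carry no replicate numbers. For the same reason no fit without a replicate exists. Values are given for H3K9me2 met-2, H3K9me2 set-25, H3K9me3 met-2 and H3K9me3 labelled set-25, in that order, unless named.

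Enriched windows made up 7.27%, 2.41%, 5.03% and 14.7% of the region above log2 0.5, and 0%, 0.359%, 1.37% and 0.211% above log2 2. With 1 CPM added they made up 0.718% for H3K9me2 met-2 and 3.13% for H3K9me3 labelled set-25. Over the input of the other mark the share was 13.0% for H3K9me2 met-2, 6.30% for H3K9me3 met-2 and 10.5% for the library labelled set-25. Over the input of the other strain it was 0.317% for H3K9me2 met-2 and 3.70% for the library labelled set-25. In 5 kb windows it was 0.806% and 1.01% for H3K9me2 of met-2 and set-25, and 0.403% in the library labelled set-25. Centred on library medians it was 5.92% for H3K9me2 set-25, 3.72% for H3K9me3 met-2 and 9.80% for the library labelled set-25.

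The median of the region minus that between the clusters was -0.117, -0.0127 and -0.0837 in the first 3 libraries with 1 CPM added. Over the input of the other mark it reversed to 0.0673 and 0.113 for H3K9me2 and was -0.283 and -0.228 for H3K9me3. The cause was not tested. Over the input of the other strain it was -0.0720, -0.107 and -0.0715 in the first 3. With 250 kb taken off either end it was -0.168 for H3K9me2 met-2 and -0.124 for the library labelled set-25. Against the middle parts of I, II, III and V it was -0.189 for H3K9me2 met-2 and -0.163 for H3K9me3 met-2.

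H3K9me2 was higher in met-2 in 92.5% of windows at a log2 difference of 0.5, 27.1% at 2, 64.8% with 1 CPM added, 13.7% when centred, 82.1% over the input of the other mark or strain and 85.3% in 5 kb windows. It was lower in 2.39%, 0.401%, 5.73% (centred) and 0.403% (5 kb). H3K9me3 was higher in met-2 in 46.8%, 22.9%, 24.7% (1 CPM), 33.9% (other mark), 33.5% (other strain), 13.7% (5 kb) and 38.8% (shortened region). It was lower in 27.7%, 1.56%, 10.2%, 13.2% (centred), 13.3%, 13.0%, 4.84% and 13.6%.

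Of the windows enriched for H3K9me2 in met-2, the share enriched for H3K9me3 in met-2 was 33.4% above log2 0.5, 97.1% with 1 CPM added, 0.324% over the input of the other mark, 93.3% over that of the other strain and 100% in 5 kb windows. For H3K9me2 in set-25 that share was 17.9% when centred and 0% in 5 kb windows.

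The remaining settings left values within the spread allowed for each. Depth limited the H3K9me2 ChIP of set-25 and the H3K9me3 ChIP labelled set-25 most, with medians of 30 and 46 counts per window.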
